A study of Mus musculus with 9 samples.

Results

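The genes of antigen presentation by class II of the major histocompatibility complex (MHC) were followed in mouse regulatory T cells, by all probe sets of 8 listed genes: H2-Aa, H2-Ab1, H2-Eb1, Cd74, H2-DMa, H2-DMb1, H2-Ob and Ciita. These genes have 13 probe sets of the 22626 on the array that are not controls. Over the whole array 12393 genes have a probe set of their own. Of the 13, 10 belong to 1 member alone and cover 6 genes. The other 3 are shared: both probe sets of H2-DMb1 are also annotated to its near copy H2-DMb2, and the probe set of H2-Ob is also annotated to the neighbouring non-coding transcript Gm20506, so that signals of H2-DMb1 and H2-Ob are uncertain.

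RNA came from CD4+CD25+ cells separated with magnets, on 9 Affymetrix arrays in 3 groups of 3, all on the C57BL6 strain. Besides wild type there were 2 conditional Sirt1 knockouts: one used CD4 cre recombinase (here CD4-cre), the other Foxp3 cre recombinase (here Foxp3-cre). Sirt1 encodes a protein deacetylase, CD4 Cre recombines broadly in T cells, and Foxp3 Cre recombines in cells that express Foxp3, the transcription factor of regulatory T cells. The sources used here do not give the age of the mice, the removed part of Sirt1 or the Cre status of the wild type mice. The design text calls the samples independent, but no label names separate animals, so p-values reflect only the spread among these 9 samples, some of which may be technical. Signals are log2 values, on which a difference of 1 is a 2-fold change.

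Class II molecules display peptides from engulfed proteins to CD4 T cells. An alpha and a beta chain (H2-Aa with H2-Ab1 for I-A, H2-Eb1 for the beta chain of I-E) assemble with the invariant chain Cd74, which fills the groove until proteases of the endosome degrade it. The H2-DM dimer (H2-DMa, H2-DMb1) then exchanges the remaining fragment for peptide, the H2-O dimer (H2-Oa, H2-Ob) restrains H2-DM, and Ciita is the coactivator that turns the whole set on. In mice the set is expressed chiefly by B cells, dendritic cells, macrophages and thymic epithelium, and mouse T cells are not known as a main source of it.

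Ciita does not bind DNA itself. It is held at class II promoters by factors bound at an X box (the RFX complex) and a Y box (NF-Y), a fixed distance apart. Promoter sequences from RefSeq (build GRCm38.p6, 250 bases before to 50 after each start) matched 5 of the 8 members, with 6 entries, and 4 are shown because they hold this pair of boxes in 1 order. The letters searched on both strands were CTNGNAAC for the X box, found in 13.2% of 32851 promoters, and ATTGG for the Y box, found in 37.4%. X letters followed by Y letters with 15 to 30 bases between them occurred in 73 promoters (0.222%). The letters were chosen after these promoters had been read, so the matches are a description. Capitals mark the X letters, then the Y letters.
H2-Aa, chr17:34287774-34288073, minus strand: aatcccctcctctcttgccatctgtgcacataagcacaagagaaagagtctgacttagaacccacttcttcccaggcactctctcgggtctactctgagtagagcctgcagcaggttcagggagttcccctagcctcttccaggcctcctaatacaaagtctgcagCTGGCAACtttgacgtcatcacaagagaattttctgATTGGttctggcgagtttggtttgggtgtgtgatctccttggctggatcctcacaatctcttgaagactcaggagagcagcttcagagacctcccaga
H2-Eb1, chr17:34305617-34305916, plus strand: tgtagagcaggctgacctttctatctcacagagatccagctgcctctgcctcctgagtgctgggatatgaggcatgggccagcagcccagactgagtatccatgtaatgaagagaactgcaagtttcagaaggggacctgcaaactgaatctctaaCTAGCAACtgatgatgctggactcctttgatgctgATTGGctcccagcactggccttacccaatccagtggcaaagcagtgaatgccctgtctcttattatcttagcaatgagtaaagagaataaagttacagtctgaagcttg
H2-DMb1, chr17:34152941-34153240, plus strand: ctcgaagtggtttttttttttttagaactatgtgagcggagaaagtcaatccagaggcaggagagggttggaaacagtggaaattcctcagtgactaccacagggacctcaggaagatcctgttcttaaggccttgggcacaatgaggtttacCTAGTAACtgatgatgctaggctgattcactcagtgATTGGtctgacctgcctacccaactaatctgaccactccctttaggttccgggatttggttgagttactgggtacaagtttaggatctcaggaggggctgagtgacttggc
H2-Ob, chr17:34238655-34238954, plus strand: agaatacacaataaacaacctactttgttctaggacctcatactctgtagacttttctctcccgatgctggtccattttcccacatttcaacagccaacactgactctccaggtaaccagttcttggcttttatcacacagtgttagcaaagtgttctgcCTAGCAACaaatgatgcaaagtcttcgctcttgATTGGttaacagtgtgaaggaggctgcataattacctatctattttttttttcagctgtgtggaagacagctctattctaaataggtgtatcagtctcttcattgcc

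The X letters read CTGGCAAC in H2-Aa, CTAGCAAC in H2-Eb1 and H2-Ob, and CTAGTAAC in H2-DMb1. The gap to the Y letters was 28 bases in H2-Aa and H2-DMb1, 27 in H2-Eb1 and 25 in H2-Ob. The X letters began between 84 and 97 bases before the start in all 4. Neither of the 2 H2-DMa entries held the pair within its window.

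Some facts of the arrays touch what follows. Wild type replicate 2 stood apart, with correlations of 0.982 to 0.987 with the other arrays over all probe sets, against 0.992 or more among the others. T cell markers were steady as a set: the mean of 14 of them without Foxp3 lay between 9.96 and 10.16 on all 9 arrays. limma called 0 of the 14 changed in any comparison, with 3, 1 and 0 at an unadjusted p under 0.05. The brightest of them, Cd3d, Cd3g, Thy1 and Cd3e, stood at -0.11, -0.03, -0.33 and -0.11 in Foxp3-cre against wild type. Some genes of other cells were about as bright. On the wild type arrays Ighm of B cells averaged 13.71, S100a8 of neutrophils 12.02 and Jchain of plasma cells 11.90. Cd3d averaged 12.16 and Cd3e 11.06 there. Bright enough to be tested were 13 of 17 B cell markers, 10 of 10 neutrophil markers and 5 of 7 plasma cell markers. The dim B cell markers are given below, and the share of other cells in the RNA was not tested. Foxp3 itself read 9.16 to 9.69 on the wild type and CD4-cre arrays but 2.67, 3.38 and 2.83 on the 3 Foxp3-cre arrays, which goes against the label of regulatory T cells for its probe set. Whether the Cre allele changes the part of Foxp3 that this probe set reads was not tested. Sirt1 read 7.91, 6.77 and 7.90 on the wild type arrays, 7.69, 7.59 and 7.59 on the CD4-cre arrays, and 7.66, 7.54 and 7.47 on the Foxp3-cre arrays. All 6 knockout arrays lay below wild type replicates 1 and 3 and above wild type replicate 2, the array that stood apart. Since the removed part is not given, the probe set may lie outside it.

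The 2 chains of I-A came first. The alpha chain gene H2-Aa (probe set 1435290_x_at) read 9.57, 9.86 and 9.08 on the wild type arrays, 9.48, 9.51 and 9.91 on the CD4-cre arrays, and 9.17, 10.09 and 10.46 on the Foxp3-cre arrays. Foxp3-cre replicates 2 and 3 were the 2 highest arrays and Foxp3-cre replicate 1 was the second lowest, above wild type replicate 3 alone, so that all 3 groups overlapped. The difference from wild type was 0.13 ± 0.31 (SE, n = 3) for CD4-cre and 0.40 ± 0.31 for Foxp3-cre, with limma adjusted p of 0.867 and 0.466. The 95% interval of the Foxp3-cre difference ran from -0.30 to 1.1, that is 0.814-fold to 2.14-fold. The other H2-Aa probe set, 1452431_s_at, read 8.23, 7.81 and 7.58 on the wild type arrays, 8.03, 8.09 and 8.40 on the CD4-cre arrays, and 7.78, 8.61 and 9.17 on the Foxp3-cre arrays. Wild type replicate 2 was the highest wild type array by the first probe set and not by the other, and wild type replicate 3 was the lowest of the 9 by both.

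The beta chain gene H2-Ab1 (1450648_s_at) read 8.76, 9.07 and 8.24 on the wild type arrays, 8.69, 8.59 and 8.99 on the CD4-cre arrays, and 8.19, 9.19 and 9.64 on the Foxp3-cre arrays. The lowest and the highest of the 9 arrays were thus both Foxp3-cre arrays, 2.73-fold apart. The differences from wild type were 0.06 ± 0.34 in CD4-cre (limma adjusted p = 0.946) and 0.32 ± 0.34 in Foxp3-cre (limma adjusted p = 0.595). The other H2-Ab1 probe sets had the same highest array: 1451721_a_at read 7.78, 7.49 and 6.82 on the wild type arrays, 7.38, 7.45 and 7.89 on the CD4-cre arrays, and 7.15, 8.06 and 8.54 on the Foxp3-cre arrays. The dimmest, 1425477_x_at, ran from 5.2 on wild type replicate 3 to 6.78 on Foxp3-cre replicate 3.

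H2-Eb1, the beta chain of I-E, read 8.74, 9.13 and 8.33 on the wild type arrays, 8.62, 8.72 and 8.96 on the CD4-cre arrays, and 8.40, 9.21 and 9.62 on the Foxp3-cre arrays. Wild type replicate 3 and Foxp3-cre replicate 1 were the 2 lowest arrays, and Foxp3-cre replicates 2 and 3 the 2 highest. The differences from wild type were 0.03 ± 0.29 in CD4-cre (limma adjusted p = 0.966) and 0.34 ± 0.29 in Foxp3-cre (limma adjusted p = 0.507). The partner alpha chain H2-Ea is not made in the C57BL/6 strain and is listed as a pseudogene; 2 of its 3 probe sets lay between 1.99 and 2.86, while 1422891_at read 5.92 to 6.42.

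Cd74, the invariant chain that escorts class II chains to the endosome, had 10.42, 10.77 and 9.77 on the wild type arrays, 10.32, 10.26 and 10.52 on the CD4-cre arrays, and 10, 10.81 and 11.16 on the Foxp3-cre arrays. The CD4-cre arrays all fell within the wild type range, and Foxp3-cre replicates 2 and 3 lay above every other array. The difference from wild type was 0.05 ± 0.31 in CD4-cre (limma adjusted p = 0.954) and 0.34 ± 0.31 in Foxp3-cre, 95% interval -0.35 to 1.03 (limma adjusted p = 0.533). In bulk RNA, fewer cells of a type and less RNA per cell cannot be told apart, and this holds for every value here.

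H2-DMa, the alpha chain of the peptide exchanger, had a narrow range, 7.43 to 8.03. Its values were 7.70, 7.63 and 7.43 on the wild type arrays, 7.67, 7.72 and 7.78 on the CD4-cre arrays, and 7.70, 7.86 and 8.03 on the Foxp3-cre arrays. Foxp3-cre replicate 1 equalled the highest wild type array at this rounding, and the other 2 lay above all wild type arrays. The Foxp3-cre difference from wild type was 0.28 ± 0.11 (95% interval 0.04 to 0.52), the only one among the 6 tested members with an unadjusted p under 0.05 (0.0250), and its limma adjusted p was 0.171. In CD4-cre the difference was 0.13 ± 0.11 (limma adjusted p = 0.582).

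The beta chain of H2-DM was read only together with H2-DMb2. Probe set 1449580_s_at gave 6.48, 6.74 and 6.18 on the wild type arrays, 6.60, 6.58 and 6.67 on the CD4-cre arrays, and 6.17, 6.91 and 7.34 on the Foxp3-cre arrays. The lowest and the highest array were again Foxp3-cre replicates 1 and 3. Its differences from wild type were 0.15 ± 0.25 and 0.34 ± 0.25 (limma adjusted p = 0.854 and 0.578 over all probe sets). The dimmer 1418638_at ranged from 4.62 on wild type replicate 3 to 5.23 on Foxp3-cre replicate 2. The probe set of H2-DMb2 alone, 1419744_at, read 6.07, 5.53 and 5.08 on the wild type arrays, 5.90, 5.76 and 5.68 on the CD4-cre arrays, and 5.49, 6.35 and 6.77 on the Foxp3-cre arrays.

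H2-Ob, the beta chain of the H2-DM inhibitor, did not have the same highest arrays. Its shared probe set 1422201_at read 6.33, 6.23 and 6.22 on the wild type arrays, 6.69, 6.43 and 6.39 on the CD4-cre arrays, and 5.72, 6.22 and 6.31 on the Foxp3-cre arrays. Every CD4-cre array lay above every wild type and every Foxp3-cre array. The difference was 0.24 ± 0.15 for CD4-cre against wild type (limma adjusted p = 0.602 over all probe sets) and -0.42 ± 0.15 for Foxp3-cre against CD4-cre (unadjusted p = 0.0193, limma adjusted p = 0.446). Non-overlap of the groups was found for 15.3% of all probe sets between CD4-cre and wild type and for 21.9% between Foxp3-cre and CD4-cre, so 1 of 13 was below the background in both. Between Foxp3-cre and wild type 0 of 13 did not overlap, against 15.9% of all probe sets. H2-Oa, its alpha chain partner, read 7.42, 7.77 and 7.36 on the wild type arrays, 7.17, 7.36 and 7.32 on the CD4-cre arrays, and 7.31, 7.71 and 7.72 on the Foxp3-cre arrays.

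Ciita, the coactivator of the set, was dim: its mean of 5.0 on 1421211_a_at was just above the 4.979 below which genes were not tested. It read 4.84, 5.16 and 4.55 on the wild type arrays, 4.91, 4.58 and 5.51 on the CD4-cre arrays, and 4.64, 5.16 and 5.67 on the Foxp3-cre arrays. The highest array of each knockout group was replicate 3, and the groups overlapped. The differences from wild type were 0.15 ± 0.29 in CD4-cre (limma adjusted p = 0.834) and 0.31 ± 0.29 in Foxp3-cre (limma adjusted p = 0.552). The second Ciita probe set, 1421210_at, stayed between 4.06 and 4.53 on all arrays.

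**Figure D1:**
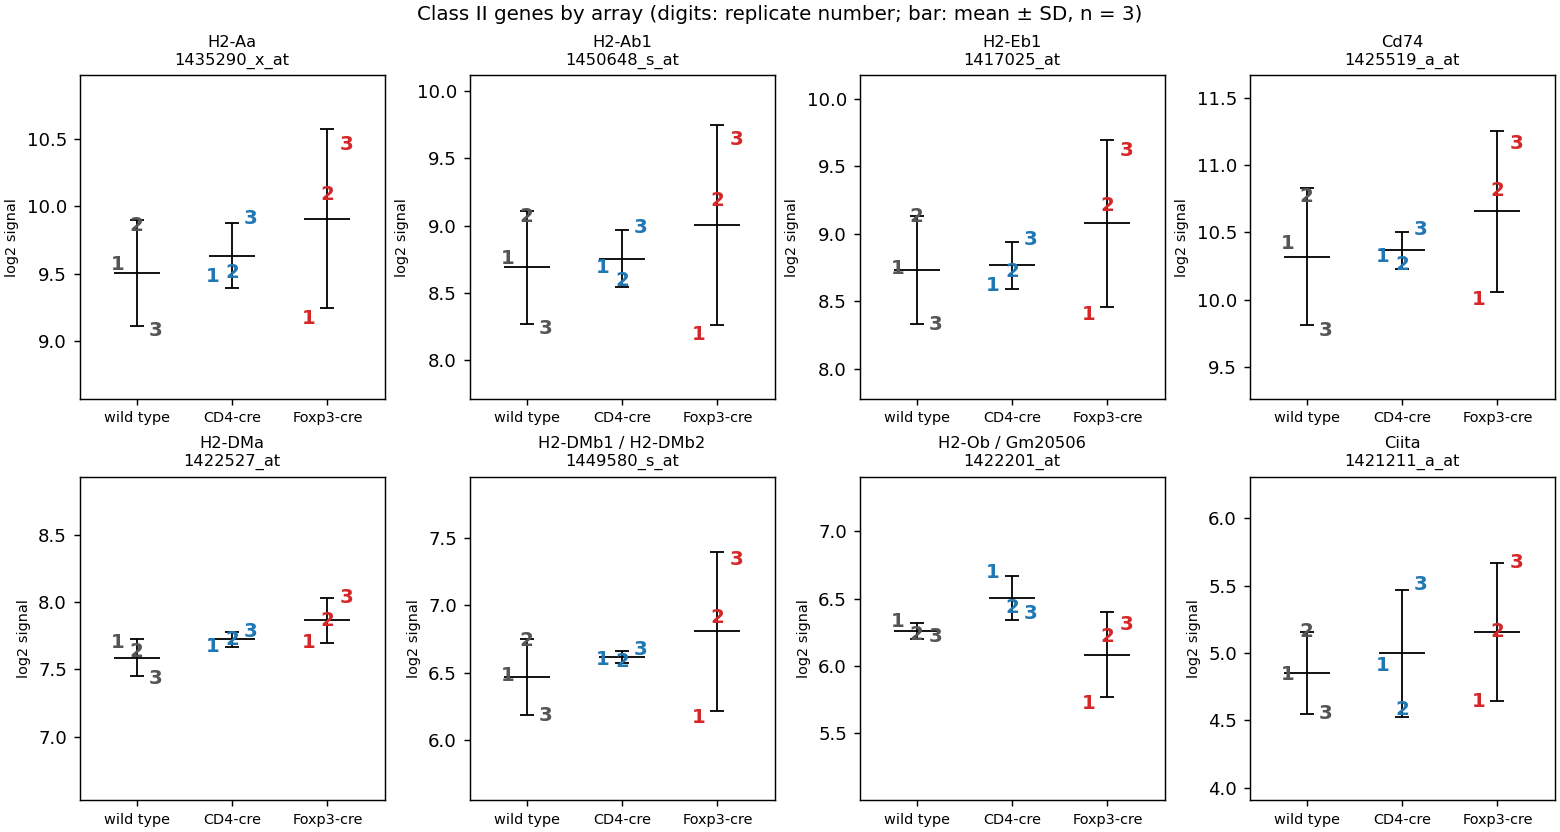
Log2 signal of 1 probe set for each of the 8 genes (vertical axis, the same height in log2 units in every panel) in the 3 groups; digits are replicate numbers and bars are the mean ± SD of 3 arrays. Foxp3-cre replicates 1 and 3 lie at opposite ends of their group in every panel (8.19 and 9.64 for H2-Ab1), and CD4-cre arrays lie above both other groups for the probe set of H2-Ob.

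Counted together, limma called 0 of the 6 tested members changed in any comparison. Over all 7436 genes tested, the share called was 0.659% for CD4-cre against wild type, 3.36% for Foxp3-cre against wild type and 0.0134% for Foxp3-cre against CD4-cre. With an unadjusted p under 0.05 there were 0, 1 and 0 of the 6. Among the 13 probe sets 0 were called, against 0.27%, 1.11% and 0.00442% of all 22626 probe sets, and 0, 1 and 1 had an unadjusted p under 0.05. The share of all genes or probe sets under that unadjusted cutoff is not given here. Such counts, for the members and for each gene list, are therefore descriptions without a background.

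The direction was mostly upward without passing the test. For CD4-cre against wild type, 11 of 13 probe sets were above 0, with a median difference of 0.13, where the median of all probe sets was 0.01. For Foxp3-cre against wild type it was 12 of 13, with a median of 0.34 and a range from -0.18 to 0.65, where the median of all probe sets was -0.02. These comparisons share the wild type arrays. The 13 probe sets belong to 8 genes, most of which moved together from array to array, so they are not 13 separate observations. For Foxp3-cre against CD4-cre the median was 0.26, against -0.03 over all probe sets, with 12 of 13 above 0. Between the knockouts, H2-Aa differed by 0.27 (95% interval -0.43 to 0.97), H2-Ab1 by 0.26 (-0.50 to 1.01), H2-Eb1 by 0.31 (-0.35 to 0.97) and Cd74 by 0.29 (-0.40 to 0.98). All 4 intervals include 0.

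**Figure D2:**
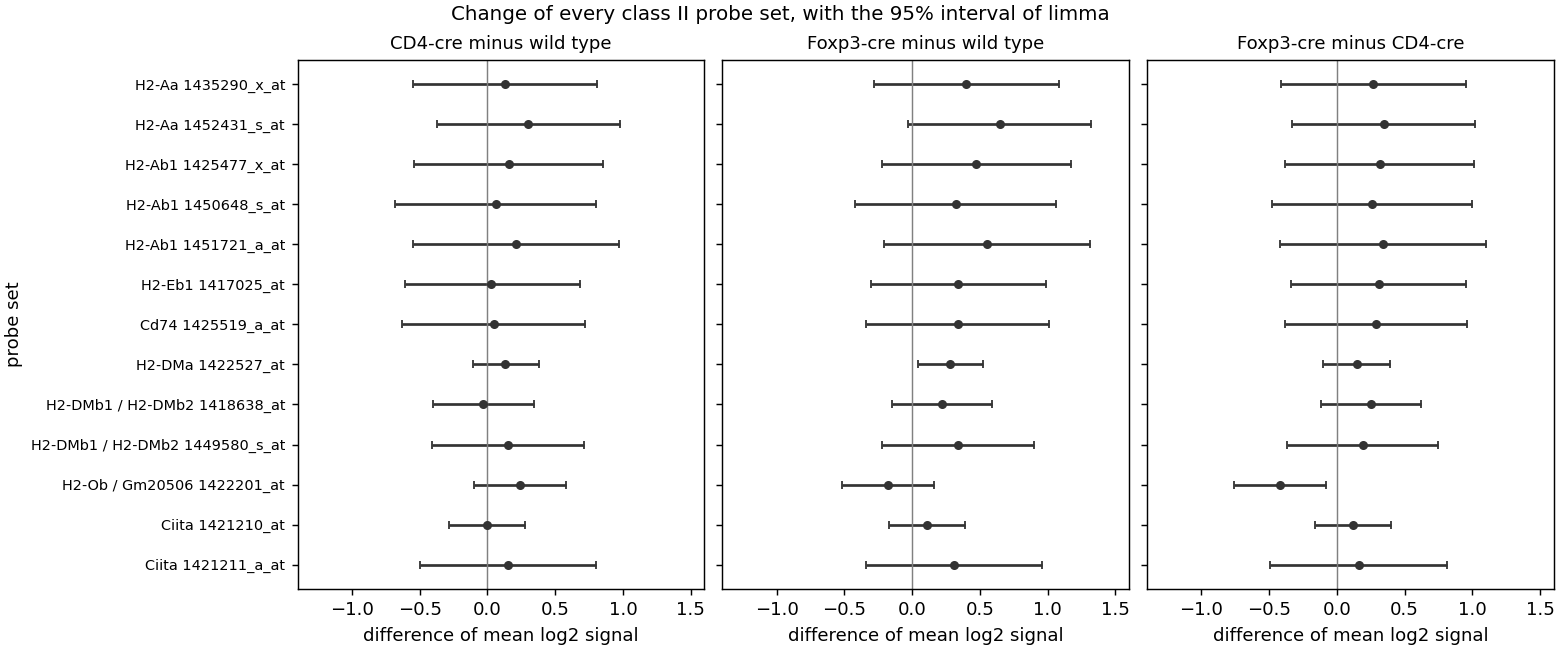
Difference of mean log2 signal (horizontal axis) of each of the 13 probe sets in the 3 comparisons, with the 95% interval of limma's fit over all probe sets. Every interval includes 0 except that of H2-DMa in Foxp3-cre against wild type (0.04 to 0.52) and that of the H2-Ob probe set in Foxp3-cre against CD4-cre (-0.76 to -0.08).

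The members varied among the Foxp3-cre arrays. The SD of the member probe sets had a median of 0.33 over wild type arrays, 0.17 over CD4-cre arrays and 0.60 over Foxp3-cre arrays, where the median over all tested genes was 0.18, 0.06 and 0.09. In 12 of 13 probe sets the spread was largest in Foxp3-cre. For H2-DMa that SD was 0.16, below its difference of 0.28 from wild type, and for the H2-Ob probe set it was 0.32, below the size of its difference of -0.42 from CD4-cre. The SE of H2-Ab1 was larger than that of 98.7% of all genes tested. Foxp3-cre replicate 1 was below both other Foxp3-cre arrays for all 13 probe sets, and 11 of 13 were higher on Foxp3-cre replicates 2 and 3 than on every wild type array. Foxp3-cre replicate 3 was the highest of the 9 arrays for 10 probe sets, and wild type replicate 3 the lowest for 10.

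Which arrays were used therefore moved the values. Without Foxp3-cre replicate 3 the difference of Foxp3-cre from wild type was 0.12 for H2-Aa, 0.07 for H2-Eb1, 0.09 for Cd74 and 0.05 for Ciita. Without Foxp3-cre replicate 1 it was 0.77 for H2-Aa, 0.72 for H2-Ab1, 0.68 for H2-Eb1 and 0.67 for Cd74. Without wild type replicate 2, the array that stood apart, it was 0.58 for H2-Aa, 0.51 for H2-Ab1, 0.54 for H2-Eb1 and 0.56 for Cd74. Without wild type replicate 3 it was 0.19 for H2-Aa, 0.09 for H2-Ab1, 0.14 for H2-Eb1 and 0.06 for Cd74. limma called 0 members without any of these arrays. In another fit limma weighted each array by a quality that it estimated from the spread within the groups. The weights were 0.462, 0.0824 and 2.41 on the wild type arrays and 2.59, 2.27 and 1.35 on the CD4-cre arrays. On the Foxp3-cre arrays they were 0.471, 1.88 and 1.55, so the low Foxp3-cre replicate 1 counted less than the other Foxp3-cre arrays. Wild type replicate 3 counted most in its group and was its lowest array for H2-Aa, H2-Ab1, H2-Eb1, Cd74 and H2-DMa. Wild type replicate 2 counted least and was the highest wild type array for H2-Aa, H2-Ab1, H2-Eb1 and Cd74. The weights thus lowered the wild type side as well as raising the Foxp3-cre side. With these weights 5 of the 6 members were called higher in Foxp3-cre than in wild type. Those were H2-Aa (0.94, limma adjusted p = 0.0222), H2-Ab1 (0.91, 0.0333), H2-Eb1 (0.86, 0.0227), Cd74 (0.96, 0.0159) and H2-DMa (0.44, 0.00898), while the same weights raised the genes called overall from 250 to 1539. Over all alternatives the highest limma adjusted p was 0.858, 1, 0.914, 0.911 and 0.423 for these genes in that order.

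The members moved together from array to array. The mean of H2-Aa, H2-Ab1, H2-Eb1 and Cd74 was 9.37, 9.71 and 8.85 on the wild type arrays, 9.28, 9.27 and 9.59 on the CD4-cre arrays, and 8.94, 9.82 and 10.22 on the Foxp3-cre arrays. As a description over 9 arrays, its Pearson r was 0.97 and 0.83 with the shared H2-DMb1 probe sets, 0.89 and 0.86 with those of Ciita and 0.82 with H2-DMa, but 0.25 with the H2-Ob probe set. With group means removed, the r of the H2-Ob probe set was 0.66. The 2 arrays farthest from the median were wild type replicate 3 and Foxp3-cre replicate 3. Without them the r was 0.94 and 0.71 for the H2-DMb1 probe sets and 0.77 and 0.86 for those of Ciita. For H2-DMa it was 0.40 without them, so that relation rests on those arrays.

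The same arrays were high and low for B cell markers. The mean of 17 measured B cell markers was 6.64, 6.89 and 6.44 on the wild type arrays, 6.88, 6.80 and 6.87 on the CD4-cre arrays, and 6.35, 7.44 and 7.70 on the Foxp3-cre arrays. Its r with the class II mean over the 9 arrays was 0.93 (Spearman's rho 0.90), 0.93 with group means removed, and 0.85 without the 2 farthest arrays. On Foxp3-cre replicates 2 and 3, 12 of the 17 were above every wild type array, and 16 were lowest within Foxp3-cre on replicate 1. limma called 0 of the 13 tested, with 2, 5 and 1 at an unadjusted p under 0.05 in the 3 comparisons, and their median difference was 0.22, 0.71 and 0.32. Ms4a1 (CD20) stood at 1.06 in Foxp3-cre against wild type, Cd79b of the B cell receptor at 0.54 and Ly86 at 0.75, whereas Ighm, the heavy chain of IgM, stood at -0.50 and was the brightest of the list. Pax5, the factor that defines B cells, was among the dim ones: on no array did more than 32.6% of all probe sets lie at or below it. The other dim ones were Ebf1, Cr2 and Fcer2a. In Foxp3-cre against wild type Pax5 stood at 0.19, Ebf1 at 1.03, Cr2 at 0.03 and Fcer2a at -0.29. Ebf1 read 3.91, 5.78 and 5.88 on the Foxp3-cre arrays. The part of B cell RNA in the class II values was not tested.

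**Figure D3:**
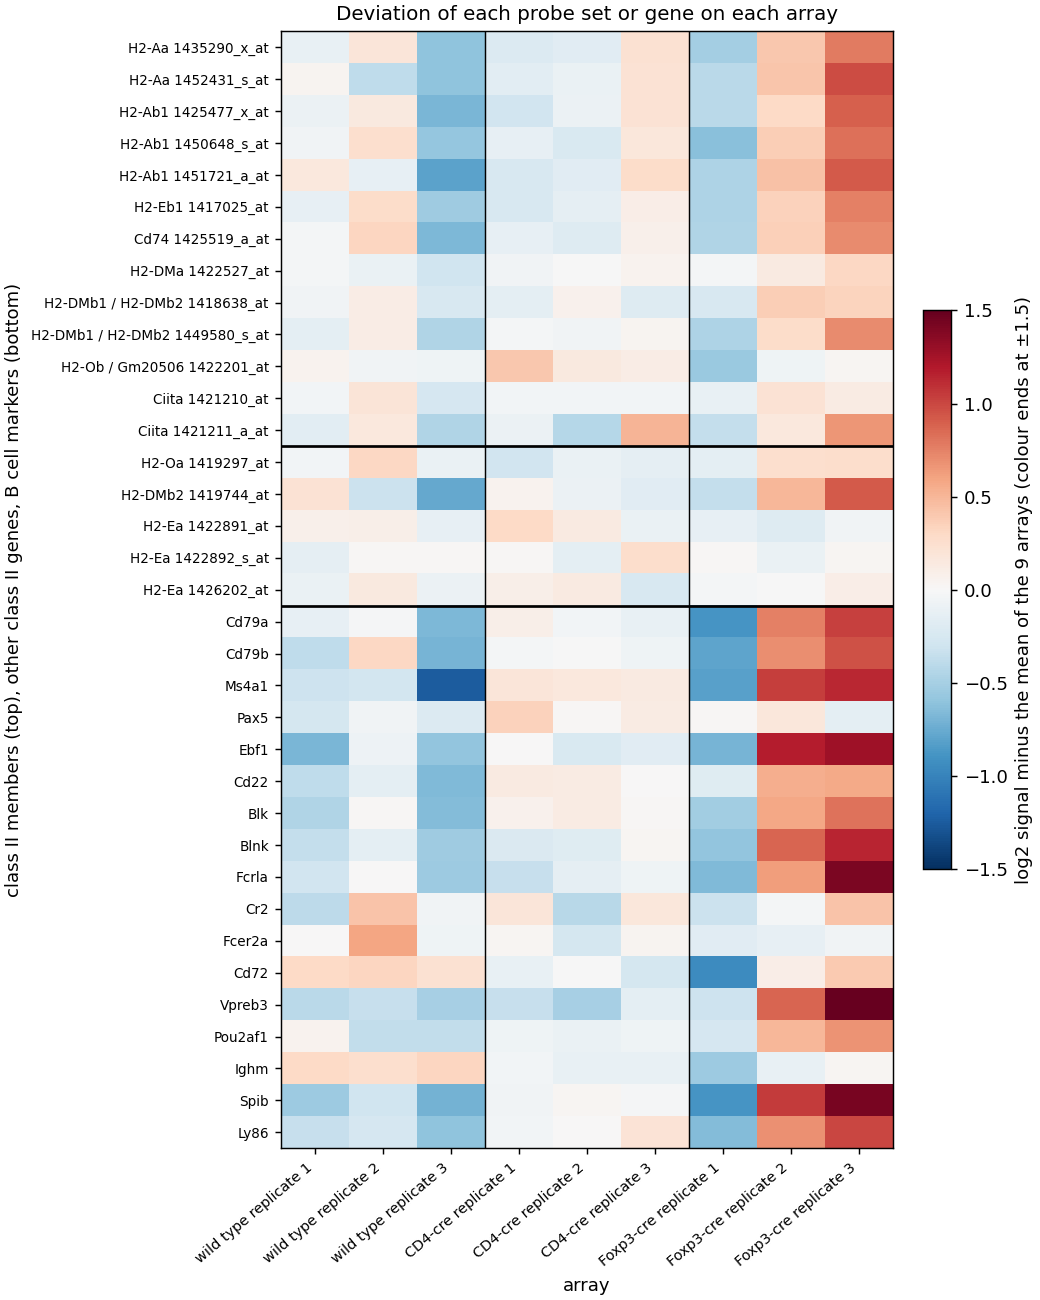
Log2 signal minus the mean of the 9 arrays (colour, ends at ±1.5) for the 13 class II probe sets, the other class II genes and the 17 B cell markers (rows) on each array (columns). Foxp3-cre replicates 2 and 3 are above the mean in most rows of the members and of the B cell markers, and Foxp3-cre replicate 1 and wild type replicate 3 below it.

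Markers of other presenting cells had a lower r with the class II mean than the B cell markers did, as a description. The mean of 17 monocyte and macrophage markers lay at 5.4 to 5.85 on wild type arrays, 5.24 to 6.18 on CD4-cre arrays and 5.87 to 7.14 on Foxp3-cre arrays, with r = 0.64. Of 10 tested, 1, 6 and 8 had an unadjusted p under 0.05 in the 3 comparisons, the median differences were -0.02, 0.94 and 1.18, and all 10 were above 0 in both comparisons of Foxp3-cre. limma called 1: C1qb, a chain of complement C1q, rose by 2.47 ± 0.51 in Foxp3-cre against wild type (limma adjusted p = 0.0368). The brightest of that list, Lyz1, Lyz2, Mpeg1 and Csf1r, stood at 1.02, 1.28, 0.59 and 0.84 there without passing. Its dim genes, which were not tested, were C1qc at 1.87, Adgre1 at 0.81, Cd14 at 0.12, Itgam at 0.71, Fcgr1 at 0.16, Cd163 at 0.65 and Marco at 0.09. The mean of 14 dendritic cell markers lay at 5.45 to 5.5, 5.36 to 5.62 and 5.55 to 5.66, with r = 0.57. Of 8 tested limma called 0, with 2, 1 and 1 at an unadjusted p under 0.05. Its brightest genes Cst3, Bst2, Itgae (also on T cells) and Tcf4 stood at 0.19, -0.06, 0.74 and 0.42 in Foxp3-cre against wild type. Its dim genes were Xcr1 and Zbtb46, which define dendritic cells, and Clec10a, Cd209a, Ccl17 and Ccl22.

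Plasma cell markers had means of 8.08 to 8.21, 8.13 to 8.2 and 8.01 to 8.43, with r = 0.81. Of 5 tested limma called 0, with 2, 3 and 1 at an unadjusted p under 0.05. Their brightest genes in Foxp3-cre against wild type were Igha at 0.69, Jchain at -0.60, Xbp1 at 0.26 and Irf4 at 0.69. Neutrophil markers lay at 7.78 to 8.75, 8.23 to 9.08 and 9.16 to 10.14. For this mean the groups of wild type and Foxp3-cre did not overlap. The same held for the monocyte and macrophage mean and for the dendritic cell mean. Of all single probe sets, 15.9% did not overlap in that comparison. limma called 6 of 10 higher in Foxp3-cre than in wild type, namely Camp, Ngp, Ltf, Lcn2, Mpo and Elane, with differences from 1.14 to 2.49. S100a9 and S100a8 stood at 1.16 and 0.84, while Cxcr2 stood at 0.05 and Csf3r at -0.33. The r of the neutrophil mean with the class II mean was 0.47. Without the 2 farthest arrays r was 0.12 for neutrophil, 0.55 for plasma cell, 0.46 for monocyte and macrophage and 0.22 for dendritic cell markers. The parts of these cell types in the class II values were not tested.

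**Figure D4:**
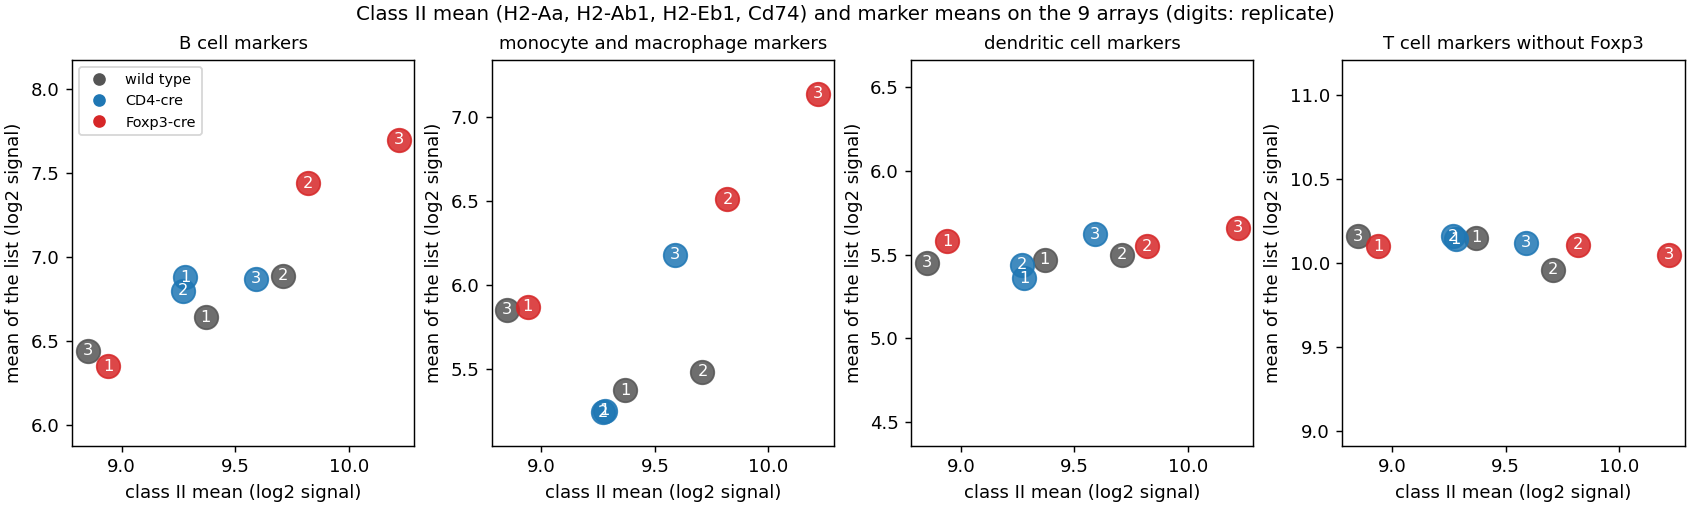
Mean log2 signal of 4 marker lists (vertical axes, all of the same height in log2 units) against the mean of H2-Aa, H2-Ab1, H2-Eb1 and Cd74 (horizontal axis) on the 9 arrays; digits are replicate numbers. The B cell mean runs from 6.35 to 7.70 along the class II mean, and the T cell mean without Foxp3 stays between 9.96 and 10.16.

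The genes most like the class II mean were looked for among the other 7430 tested genes by Pearson r over the 9 arrays. All genes read on an array share the hybridisation and labelling of that array. The 10 closest, with r from 0.903 to 0.969, were Ddx24, Cd180, Cd79b, Apoe, Mef2c, Fcrla, Tnfrsf13c, Napsa, Cd79a and Plcg2. Of these, 3 (Cd79b, Fcrla and Cd79a) are in the B cell list. Ddx24, an RNA helicase, had the highest r but moved by just 0.32 over all arrays, from 8.27 on wild type replicate 3 to 8.59 on Foxp3-cre replicate 3. Tnfrsf13c, the BAFF receptor, moved by 1.59, from 5.54 on wild type replicate 3 to 7.13 on Foxp3-cre replicate 3. limma called 0 of the 10 changed in any comparison, and 0 had an unadjusted p under 0.05. The 10 were picked on these arrays for following the class II mean, whose own genes were not called. That outcome was therefore largely set by the choice and adds no result of its own.

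Regulators of class II promoters were read next. Of 12 measured transcription factors limma called 0 changed, with 1, 3 and 4 at an unadjusted p under 0.05, and their median difference was -0.01, -0.05 and -0.06 in the 3 comparisons. Irf4, a factor of activated lymphocytes, was the nearest to the threshold, at 0.69 ± 0.16 in Foxp3-cre against wild type (limma adjusted p = 0.0523). Spi1 (PU.1) of myeloid and B cells stood at -0.62 ± 0.32 for CD4-cre against wild type and 0.31 ± 0.32 for Foxp3-cre. The mean of the 12 had r = 0.21 with the class II mean.

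Endosomal processing genes were also tested: limma called 0 of 9, with 1, 3 and 2 at an unadjusted p under 0.05, and medians of -0.05, 0.24 and 0.19. Ifi30, the thiol reductase GILT, stood at 0.46 ± 0.14 in Foxp3-cre against wild type (limma adjusted p = 0.0981) and Ctsh, cathepsin H, at 0.64 ± 0.30 (limma adjusted p = 0.250). Among costimulatory ligands limma called 0 of 6, with 2, 1 and 1 at an unadjusted p under 0.05 and medians of -0.05, 0.08 and 0.01. Icosl, the ligand of ICOS, stood at -0.58 and -0.69 against wild type, Cd86 at -0.32 and 0.10, and Cd83 at 0.32 and 0.22. Of 3 other class II genes measured, H2-DMb2 stood at 0.22 and 0.64 and H2-Oa at -0.24 and 0.06; 0 passed limma's threshold, and 0 had an unadjusted p under 0.05.

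Class I presentation, which shows peptides from inside the cell to CD8 T cells and operates in nearly every cell type, served as a contrast. limma called 0 of 14 genes, with 0, 1 and 1 at an unadjusted p under 0.05, and the medians were 0.03, 0.02 and 0.00. Its mean stayed between 10.69 and 10.89 on the 9 arrays, with r = -0.33 with the class II mean. Tap2, a subunit of the peptide transporter, stood at -0.21 ± 0.08 in Foxp3-cre against wild type (limma adjusted p = 0.183), and Psmb10, an immunoproteasome subunit, at -0.19 ± 0.10.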

How the data were processed

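The deposited values are log2 signals of probe sets on each array, which the authors made with RMA per the submitters' processing notes. RMA corrects background, normalizes between arrays and summarises probes, and compresses differences of dim probe sets. The sources used here do not give its version. The values span 1.57 to 14.06, and 0 pairs of arrays were identical. Arrays have no read depth, and 3 per group limit the precision. Of 22690 probe sets, 64 controls were left out; 20380 carry 1 gene symbol in the platform annotation, 691 several and 1555 none. Through gene IDs 20351 matched RefSeq.

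The tests used lmFit and eBayes of limma 3.58.1 (R 4.3.3), in 1 fit over the 9 arrays, two-sided, with the brightest probe set for each gene, genes at or above the 40th percentile of gene means, and Benjamini-Hochberg adjusted p below 0.05. A second fit took all probe sets. Every adjusted p is limma's. The fit was also run on simulated data in which a gene had the same spread on every array. The spread of these arrays was unequal, so that run does not check the fit under such spread. An exact permutation test of 3 against 3 cannot go below 0.1 and was not used. The members and gene lists were chosen with earlier results of these data known. Named were all members, the list genes that changed or else 2 of the largest differences, the 4 brightest markers of a list, and the 10 genes most like the class II mean; Cd83 (tied with Cd86), Cxcr2, Csf3r and the dim marker genes were added after their values were seen. Alternatives were leaving out each array, a replicate block, other filters, all probe sets, the mean over probe sets, 2 groups only, trend and robust variance, array weights and repeated quantile normalization.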

Additional observations from a re-analysis of the deposited data

How the results depend on the processing

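Limma called 0 members in every comparison under all alternatives but array weights, where 5 were called in Foxp3-cre against wild type. Counts over all genes moved more. Against the 49, 250 and 1 genes called in CD4-cre against wild type, Foxp3-cre against wild type and Foxp3-cre against CD4-cre, array weights gave 1298, 1539 and 812, and fits of the 2 compared groups alone gave 22, 16 and 55. The stricter filter gave 29 in the first comparison, and repeated quantile normalization 5 in the last. Leaving out 1 array gave 4 to 191, 71 to 567 and 1 to 72, the highest each time without wild type replicate 2. The replicate block gave 67, 354 and 96 genes and called 0 members. The numbers were not taken to pair the samples, since the deviations of same-numbered arrays correlated at -0.03 to 0.49 and not all above 0.1. As a hint from the data in the other direction, an array correlated best with its own number in 12 of 18 comparisons, where a random choice among 3 arrays gives 6.

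Directions of some members were not stable. H2-DMa kept its sign in every comparison under all alternatives. H2-Aa, H2-Eb1, Cd74 and Ciita kept theirs in Foxp3-cre against wild type. In CD4-cre against wild type, leaving out 1 array moved H2-Aa from -0.082 to 0.30, H2-Ab1 from -0.17 to 0.25, H2-Eb1 from -0.17 to 0.23, Cd74 from -0.23 to 0.27, Ciita from -0.11 to 0.36 and 1418638_at from -0.12 to 0.062, which array weights put at 0.10. The lowest was reached without wild type replicate 3, and for Ciita without CD4-cre replicate 3. In Foxp3-cre against wild type, H2-Ab1 ran from -0.00041 to 0.72, lowest without Foxp3-cre replicate 3, and 1422201_at from -0.29 to 0.0026. In Foxp3-cre against CD4-cre, H2-Aa ran from -0.0038 to 0.64, H2-Ab1 from -0.062 to 0.66, Ciita from -0.10 to 0.42 and 1449580_s_at from -0.073 to 0.51, each lowest without Foxp3-cre replicate 3. The causes were not tested.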
